A study of Mus musculus with 5 samples.

Results

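Solute carrier (Slc) genes encode membrane proteins that move nutrients, ions, metals and signalling molecules across the plasma membrane and the membranes of organelles. The genes described here are those whose symbol starts with Slc and a digit and which are protein-coding, among the genes that the authors listed as differentially expressed between *Irf8*-OE and control bone marrow-derived dendritic cells (BMDCs). The list held 29 such genes among 1355 genes, 1130 of which were protein-coding. All 29 were kept, and each was assigned to a substrate class by its family number, except *Slc17a8*. The family number of *Slc17a8* falls with the organic anions, and it was placed with the amino acids.

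BMDCs are bone marrow cells driven towards dendritic cells in culture. Here the myeloid growth factor GM-CSF was given at 5 ng/ml and the dendritic cell growth factor Flt3L at 200 ng/ml, and the labels of every sample name TNF-α stimulation, for which the protocol gives 20 ng/ml. Cells were replated on day 9, and the non-adherent cells were taken on days 15 to 16 for RNA-seq of poly-A RNA. The 3 *Irf8*-OE samples came from *Irf8* CAG-LSL *Itgax* Cre mice, in which an *Irf8*-Flag transgene behind a stop cassette at the H11 locus is switched on where *Itgax* Cre is active. *Itgax* encodes CD11c, so the transgene depends on CD11c-expressing cells and is not limited to a single type of dendritic cell. The 2 control samples are labelled wild type, whereas the study's text gives *Irf8* CAG-LSL without Cre as the control for these cultures. All mice were described as male, 8 weeks old and on the C57BL/6 background. The sources used here do not say whether each sample came from its own mouse or culture, so p-values measure only the spread between these samples.

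Slc proteins are grouped into numbered families by sequence similarity, and a family often shares a kind of substrate. Importers at the plasma membrane, such as Slc7a8 for amino acids, bring substrates into the cytosol, whereas vesicular carriers, such as Slc18a2 for monoamines, load storage granules. Zinc is handled by a pair of families that work in opposite directions, since Slc39 proteins bring zinc into the cytosol and Slc30 proteins take it out or into vesicles. In myeloid cells such carriers feed activation, granule storage and lysosomal breakdown.

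*Irf8*, the gene overexpressed by design, had 2835 and 2747 normalized counts in the controls and 7141, 6519 and 6021 in *Irf8*-OE. Normalized counts are reads per gene divided by a size factor per sample. Its log2 fold change was 1.23 ± 0.08 (SE), with an adjusted p of 8.0e-06 by limma, where SE is the standard error. Sex-linked genes went against the label of male mice in the *Irf8*-OE group. *Xist*, the RNA of the inactive X chromosome, reached 10772 to 13476 normalized counts in *Irf8*-OE, against 1.12 and 0 in controls. On the Y chromosome, *Uty*, *Kdm5d*, *Eif2s3y* and *Ddx3y* ranged from 484 to 1385 normalized counts in controls and were without a read in *Irf8*-OE. Sex and genotype therefore cannot be told apart in any comparison below, and no Slc gene described here lies on X or Y. The listed genes held 646123 to 1062127 reads per sample, and the full depth of the libraries is not known here. Of the 11 dendritic cell markers examined, *Cd24a*, *Itgae* and *Tlr11* were listed. The defining markers *Itgax*, *Flt3*, *Zbtb46*, *Xcr1* and *Clec9a* were not listed, so the labelled cell type was not checked against them here.

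Of the 29 Slc genes, 16 were higher and 13 were lower in *Irf8*-OE. Differences were called by limma on log2(normalized counts + 1) where the adjusted p was under 0.05 and the absolute log2 fold change over 1. In the whole list 99.1% of genes were called, 58.1% higher and 41% lower, because every listed gene had been selected for this contrast in these very samples. The counts for the Slc genes, 55.2% higher and 44.8% lower, therefore describe the list and are no independent test. With the scaling factors of edgeR's TMM method set over the listed genes, 10 Slc genes were called higher and 13 lower. The median log2 fold change of all listed genes moved from 1.14 to 0.84. TMM assumes that most genes are unchanged, and quantile normalization, used below, that all samples share the same distribution. A list selected for change does not meet the first assumption and need not meet the second. In all 29 genes the *Irf8*-OE values and the control values were separate, and this held for 100% of the listed genes. A group of 3 and a group of 2 can be split in 10 ways, so the smallest p of an exact permutation test is 0.1. The limma adjusted p-values of the Slc genes ran from 7.8e-07 to 0.0050. Both the test and the adjustment ran over genes already selected for this contrast in these samples. Small values were therefore set by that selection, and adjusted p-values given for single genes control no false discovery rate. The median absolute log2 fold change of the Slc genes was 1.80 against 1.73 in the whole list. The median signed log2 fold change was 1.08 against 1.14. Because RNA was taken in bulk from the harvested cells, fewer cells of a type and less RNA per cell cannot be told apart.

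**Figure D1:**
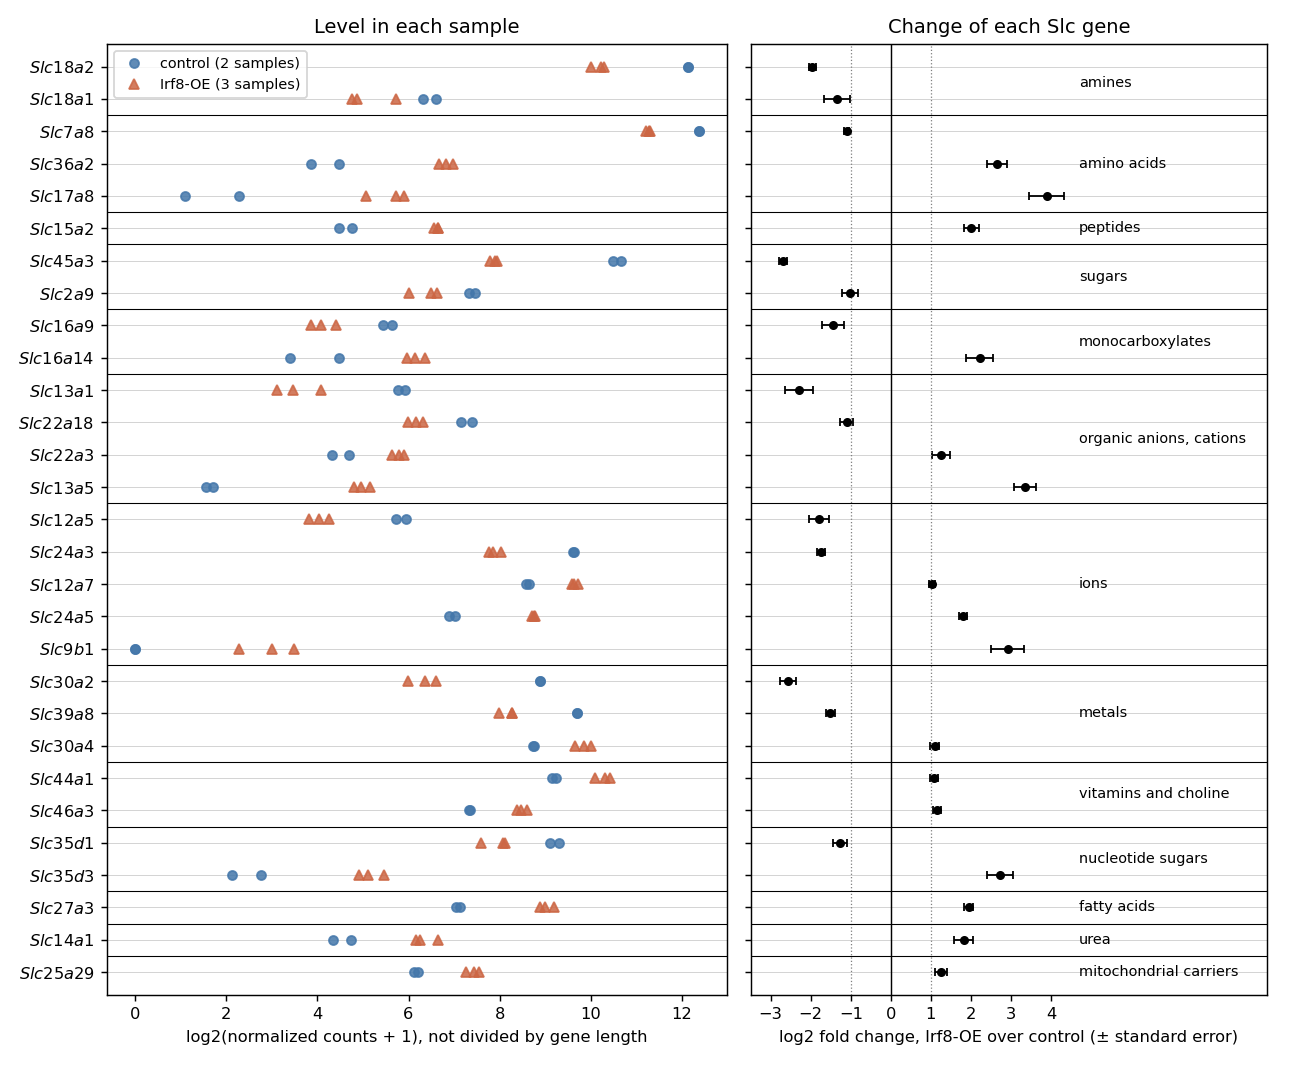
The left panel plots log2(normalized counts + 1) of each of the 29 Slc genes in the 2 control samples (circles) and the 3 Irf8-OE samples (triangles), in substrate classes separated by lines. The right panel gives each gene's log2 fold change, Irf8-OE over control, with its standard error, and dotted lines mark -1 and 1. Circles and triangles are apart in all 29 rows, and the changes run from -2.70 for Slc45a3 to 3.89 for Slc17a8.

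The Slc genes were spread over 21 family numbers, 13 substrate classes and 17 chromosomes. Most of the summed counts in the controls came from the lower genes. Summed over the 13 lower genes, normalized counts were 14566 and 14526 in the controls and 4652, 5048 and 5094 in *Irf8*-OE. Summed over the 16 higher genes, they were 1987 and 2017 in the controls and 4763, 4976 and 5194 in *Irf8*-OE. The 29 genes together fell from between 16543 and 16553 to between 9414 and 10288, although more of them rose than fell. *Slc7a8* and *Slc18a2* held most of the control sum. The log2 ratio of the summed means was -0.74 for the Slc genes and -0.66 for all listed genes.

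Promoter sequences of the Slc genes were read from RefSeq (GRCm38.p6), which gave the 250 bases before a start for 25 of the 29. It gave 1 promoter for 17 of these genes and 2 promoters for 8. Those shown are of *Slc18a2*, the most abundant lower gene per kilobase in the controls, of *Slc45a3*, a lower gene with none of the motifs searched in the sequence shown, and of *Slc24a5*, a higher gene that holds 2 of the motifs searched. Capitals mark matches to a GATA motif, AGATAA, which reads TTATCT on the other strand, or to an AP-1 motif, TGANTCA.
Slc18a2, chr19:59260628-59260877, plus strand: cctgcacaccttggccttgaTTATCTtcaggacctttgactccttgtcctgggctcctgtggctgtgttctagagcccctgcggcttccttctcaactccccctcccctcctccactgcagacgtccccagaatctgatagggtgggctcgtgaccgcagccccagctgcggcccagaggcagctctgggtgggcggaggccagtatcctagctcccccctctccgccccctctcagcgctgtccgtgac
Slc45a3, chr1:131962665-131962914, plus strand: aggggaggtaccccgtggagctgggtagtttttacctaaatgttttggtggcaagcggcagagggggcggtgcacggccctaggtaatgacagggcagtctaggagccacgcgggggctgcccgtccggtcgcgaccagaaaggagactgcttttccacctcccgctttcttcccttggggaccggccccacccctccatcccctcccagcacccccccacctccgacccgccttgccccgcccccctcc
Slc24a5, chr2:125067877-125068126, plus strand: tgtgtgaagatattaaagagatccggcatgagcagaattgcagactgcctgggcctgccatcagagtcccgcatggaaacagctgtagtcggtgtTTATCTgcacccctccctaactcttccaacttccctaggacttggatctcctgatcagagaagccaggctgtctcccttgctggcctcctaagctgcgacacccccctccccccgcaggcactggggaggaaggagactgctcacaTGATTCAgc

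A gene was counted where any of its promoters held the letters, and 8 of the 25 Slc genes had 2 promoters. Searched on both strands, AGATAA was found before 5 of the 25 genes (20%), against 11.4% of the 27025 genes in the table. Those genes were *Slc15a2* and *Slc24a5*, which were higher, and *Slc18a2*, *Slc22a18* and *Slc39a8*, which were lower. The promoter of *Slc39a8* nearest the gene start held no match. TGANTCA was found before 3 of the 25 genes (12%), namely *Slc24a5*, *Slc12a5* and *Slc2a9*, against 7.82% of all genes. The interferon response letters, GAAA, any 2 bases and GAAA, were found before 0 of the 25, against 3.46% of all genes. The ETS-IRF letters, GGAA, any 2 bases and GAAA, were found before 0 of the 25, against 2.68% of all genes. The last motif differs from the one before in a single base, so the same stretch of the same strand cannot match both. A match describes letters in this window and no binding was measured. Whether the shares of the Slc genes differ from those of all genes was not tested.

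The vesicular amine carriers of family 18 were both lower. They load monoamines such as histamine and serotonin from the cytosol into secretory vesicles. *Slc18a2* (VMAT2, chr19:59260878-59296012), whose promoter is shown above, had 4508 and 4491 normalized counts in the controls and 1024, 1197 and 1255 in *Irf8*-OE. All 3 *Irf8*-OE samples were far below the controls, whose values were nearly equal. Its mean fell from 4499 ± 11.9 (SD, n = 2) to 1159 ± 121 (SD, n = 3), a log2 fold change of -1.96 (SE 0.09) with a limma adjusted p of 2.3e-06. *Slc18a1* (VMAT1, chr8:69037711-69089235) had 78.7 and 96.0 normalized counts in the controls and 51.8, 26.1 and 28.1 in *Irf8*-OE. The first *Irf8*-OE sample stood nearer to the controls than the others. The log2 fold change of *Slc18a1* was -1.34 (SE 0.33, limma adjusted p = 0.0050), and without the second control sample it was -1.20 with an adjusted p of 0.063. The span of *Slc18a1* overlaps that of *Atp6v1b2* on the opposite strand. Spans include introns, and whether exons overlap was not examined. The strandedness of the libraries is not stated, so reads in any shared exon cannot be told apart.

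Among the carriers of amino acids and peptides, a mitochondrial carrier included, 4 were higher and 1 was lower, and 58.1% of all listed genes were called higher. In the amino acid class alone 2 were higher and 1 was lower. The summed normalized counts of that class fell from 5297.9 and 5299.0 in the controls to 2506.5, 2680.5 and 2660.5 in *Irf8*-OE. Most of these counts came from *Slc7a8*. *Slc7a8* (LAT2, chr14:54722209-54781946), which exchanges neutral amino acids at the plasma membrane, had 5275 and 5282 normalized counts in the controls and 2362, 2521 and 2483 in *Irf8*-OE. Both controls were high and nearly equal, and the 3 *Irf8*-OE samples lay close together below them. Its log2 fold change was -1.10 (SE 0.06, limma adjusted p = 3.0e-06). With quantile normalization over the listed genes it was -0.70, below the fold threshold, but that method forces the same distribution on all samples. *Slc36a2* (chr11:55158470-55185077), a proton-coupled carrier of small amino acids such as glycine and proline, had 21.4 and 13.4 normalized counts in the controls and 112, 101 and 126 in *Irf8*-OE. It was low in both controls and rose by a log2 fold change of 2.66 (SE 0.25). *Slc15a2* (PEPT2, chr16:36750177-36784962), which imports di- and tripeptides with protons, had 21.4 and 25.9 normalized counts in the controls and 93.0, 99.9 and 99.4 in *Irf8*-OE. Its *Irf8*-OE values lay close together, with a log2 fold change of 2.00 (SE 0.19). *Slc17a8* (VGLUT3, chr10:89574020-89621253), which loads glutamate into vesicles, had 1 and 4 reads in the controls and 34, 63 and 52 in *Irf8*-OE. Its fitted log2 fold change was 3.89 (SE 0.45), which depends on the count added before taking logs and moved to 3.29 without the first control sample and to 4.48 without the second. The ratio of its normalized reads was 18.5, with a 95% interval for counting error of 7.76 to 57.8. *Slc25a29* (chr12:108825873-108835883), a carrier of basic amino acids in the inner mitochondrial membrane, had 73.1 and 68.1 normalized counts in the controls and 185, 173 and 153 in *Irf8*-OE (log2 fold change 1.25, SE 0.14).

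Both listed genes of the sugar carrier families were lower. *Slc45a3* (prostein, chr1:131962967-131982969), whose promoter is shown above, had 1622 and 1436 normalized counts in the controls and 219, 246 and 239 in *Irf8*-OE. Its controls differed more from each other than its *Irf8*-OE samples did, but all of them were far apart from *Irf8*-OE. The mean fell from 1529 ± 132 (SD, n = 2) to 234 ± 14.1 (SD, n = 3), a log2 fold change of -2.70 (SE 0.10) with a limma adjusted p of 7.8e-07. *Slc2a9* (GLUT9, chr5:38349273-38503143), which is best known as a urate transporter, ran from 161 to 176 normalized counts in the controls and from 63.5 to 98.4 in *Irf8*-OE. Its log2 fold change was -1.02 (SE 0.21), just past the threshold, and it was -0.96 without the second control sample and -0.84 without the second *Irf8*-OE sample.

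Zinc carriers differed in direction within and between families. *Slc30a2* (ZnT2, chr4:134343181-134354484), which moves zinc into vesicles, had 475 and 470.2 normalized counts in the controls and 96.8, 81.2 and 62.3 in *Irf8*-OE. All 3 *Irf8*-OE samples were low, and the log2 fold change was -2.57 (SE 0.19, limma adjusted p = 1.5e-05). *Slc30a4* (ZnT4, chr2:122681233-122702663), which also moves zinc into vesicles, had 421 and 429.9 normalized counts in the controls and 798, 926 and 1030.5 in *Irf8*-OE. It rose by a log2 fold change of 1.10 (SE 0.11). *Slc39a8* (ZIP8, chr3:135825279-135888572), an importer of zinc and manganese, had 827 and 823 normalized counts in the controls and 251, 308.1 and 308.3 in *Irf8*-OE. It fell by 1.52 on the log2 scale (SE 0.11). In the controls *Slc39a8*, *Slc30a2* and *Slc30a4* had 108, 133 and 77.7 normalized counts per kilobase, and in *Irf8*-OE they had 37.7, 22.5 and 168. Per kilobase, *Slc30a4* thus went from the lowest of these 3 genes to the highest. Summed over the 3 genes, normalized counts were 1724.0 and 1723.5 in the controls and 1146, 1316 and 1401 in *Irf8*-OE.

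Of the 5 ion carriers, 3 were higher and 2 lower, and their summed normalized counts changed little, from 1341 and 1368 in the controls to 1553, 1491 and 1428 in *Irf8*-OE. The log2 ratio of these sums was 0.14. Family 24 holds exchangers that trade sodium against calcium and potassium. *Slc24a3* (chr2:145167754-145642166) had 778 and 789 normalized counts in the controls and 259, 231 and 216 in *Irf8*-OE, a fall of 1.74 on the log2 scale (SE 0.10). *Slc24a5* (chr2:125068124-125088677), known from melanosomes, had 128 and 118 in the controls and 432, 439 and 421 in *Irf8*-OE, a log2 fold change of 1.80 (SE 0.10). Per kilobase, *Slc24a5* was above *Slc24a3* in *Irf8*-OE, with 185 against 51.5 normalized counts, and below it in the controls, with 52.8 against 172. The span of *Slc24a5* overlaps that of *Myef2* on the opposite strand, and reads in any shared exon cannot be told apart here. The listed members of family 12 are cotransporters that carry potassium and chloride out of the cell. *Slc12a7* (KCC4, chr13:73733094-73816754) had 383 and 401 normalized counts in the controls and 843, 798 and 766 in *Irf8*-OE, a log2 fold change of 1.03 (SE 0.08). It lay near the threshold, at 0.997 without the first control sample and 0.99 without the first *Irf8*-OE sample. *Slc12a5* (KCC2, chr2:164960802-164999731), known from neurons, had 51.7 and 60.5 normalized counts in the controls and 15.3, 13.1 and 18.1 in *Irf8*-OE, a fall of 1.80 on the log2 scale (SE 0.26). *Slc9b1* (chr3:135348029-135397827), of a sodium-proton exchanger family, had 0 reads in both controls and 4, 11 and 7 reads in *Irf8*-OE. Against a floor of 3 reads per library in the controls it was at least 2.25-fold higher, and it was not called with quantile normalization (log2 fold change 0.65, adjusted p = 0.198).

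Carriers of organic anions, cations and monocarboxylates were divided evenly, with 3 higher and 3 lower. *Slc13a5* (chr11:72241989-72267222), a sodium-coupled citrate importer, had 2 reads in each control and 36, 29 and 30 reads in *Irf8*-OE. The ratio of its normalized reads was 14.8, with a 95% interval for counting error of 5.58 to 55.3. *Slc13a1* (chr6:24088283-24168092), a sodium-coupled sulfate importer of the same family, had 59.6 and 53.7 normalized counts in the controls and 7.67, 15.9 and 10.0 in *Irf8*-OE. It fell by 2.30 on the log2 scale (SE 0.34). *Slc22a3* (OCT3, chr17:12418960-12507704), a carrier of organic cations including monoamines, had 19.1 and 24.9 normalized counts in the controls and 58.5, 48.5 and 54.2 in *Irf8*-OE. Its log2 fold change was 1.26 (SE 0.23), and 0.79 with quantile normalization. Its span overlaps that of *Plg* on the opposite strand, and reads in any shared exon cannot be told apart. *Slc22a18* (chr7:143473736-143499334), an organic cation carrier family member from an imprinted region, had 140.5 and 167 normalized counts in the controls and 70.9, 62.6 and 79.3 in *Irf8*-OE. Its log2 fold change was -1.11 (SE 0.17), and -0.98 without the second control sample. *Slc16a14* (chr1:84905898-84935134), a monocarboxylate family member without a settled substrate, had 21.4 and 9.60 normalized counts in the controls and 61.3, 70.0 and 81.4 in *Irf8*-OE. The controls differed from each other more than 2-fold, and the log2 fold change was 2.21 (SE 0.35). *Slc16a9* (chr10:70245100-70285968), of the same family, had 42.7 and 48.9 normalized counts in the controls and 13.4, 15.9 and 20.1 in *Irf8*-OE, a fall of 1.44 on the log2 scale (SE 0.27).

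The classes of fatty acids, of vitamins and choline and of nucleotide sugars together held 4 higher genes and 1 lower gene. Of all listed genes 58.1% were called higher. In the nucleotide sugar class, summed normalized counts fell from 550.7 and 639.1 in the controls to 226.2, 296.9 and 319.4 in *Irf8*-OE. *Slc27a3* (FATP3, chr3:90385239-90389938), a fatty acid transport protein family member that activates long-chain fatty acids, had 138 and 130.5 normalized counts in the controls and 582, 509 and 473 in *Irf8*-OE. Its mean rose from 134 ± 5.46 (SD, n = 2) to 521 ± 55.4 (SD, n = 3), a log2 fold change of 1.94 (SE 0.12) with a limma adjusted p of 5.6e-06. *Slc44a1* (chr4:53440413-53622478), a choline carrier that serves membrane lipid synthesis, had 566 and 604 normalized counts in the controls and 1083, 1265 and 1368 in *Irf8*-OE. All 3 *Irf8*-OE samples were high, with a log2 fold change of 1.08 (SE 0.11). *Slc46a3* (chr5:147878437-147894815), a carrier of the lysosomal membrane placed with the vitamin carriers by its family number, had 160.7 and 161 normalized counts in the controls and 335, 351 and 390 in *Irf8*-OE (log2 fold change 1.15, SE 0.11). *Slc35d1* (chr4:103170649-103215164), which brings nucleotide sugars into the endoplasmic reticulum, had 547 and 633 normalized counts in the controls and 193, 268 and 276 in *Irf8*-OE. It fell by 1.28 on the log2 scale (SE 0.17). *Slc35d3* (chr10:19847916-19851459), an orphan member of that family known from platelet granules, had 3 and 6 reads in the controls and 35, 31 and 43 reads in *Irf8*-OE. The ratio of its normalized reads was 7.52, with a 95% interval for counting error of 3.82 to 16.9. The remaining gene, *Slc14a1* (chr18:78100091-78142119), a urea channel of red cells and kidney, had 25.8 and 19.2 normalized counts in the controls and 75.7, 71.0 and 99.4 in *Irf8*-OE. Its log2 fold change was 1.82 (SE 0.24).

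Among the 8 family numbers with 2 listed members, 7 had a higher member and a lower member. They were families 12, 13, 16, 22, 24, 30 and 35. In family 18 both members were lower. In family 13 the citrate carrier *Slc13a5* had a fitted log2 fold change of 3.35 (SE 0.28) and the sulfate carrier *Slc13a1* -2.30. The fitted value of *Slc13a5* depends on the count added before taking logs, since its controls had 2 reads each. The other 13 family numbers had 1 listed member each. These pairs are only the members that passed the selection of the list, and members of a family outside it are not analysed here.

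**Figure D2:**
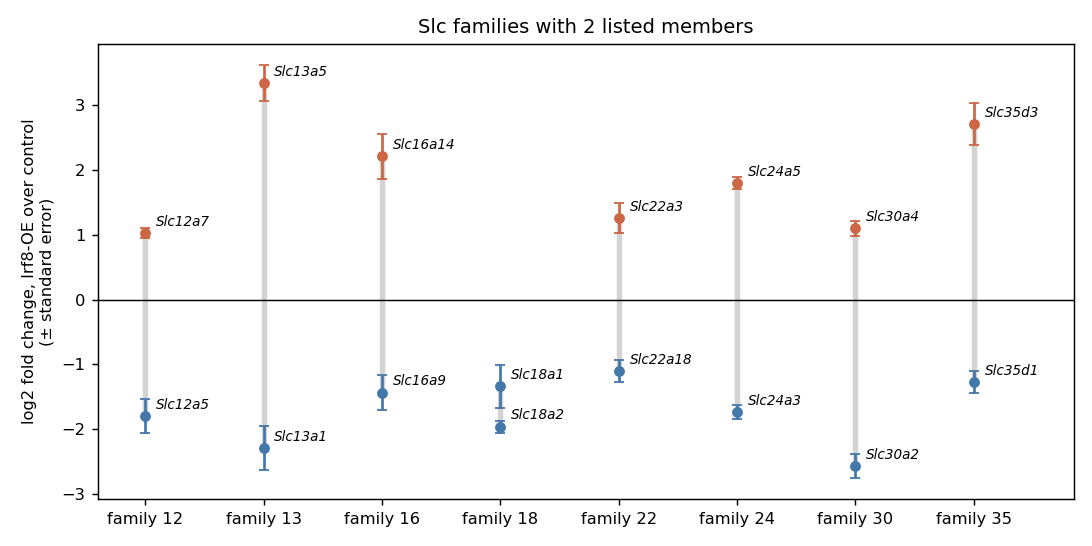
Each column is a Slc family number with 2 listed members, and points give the log2 fold change of each member, Irf8-OE over control, with its standard error. The grey line joins the members, and it crosses 0 in 7 of the 8 families, the exception being family 18.

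Per kilobase of gene length, *Slc18a2* led in the controls with 1183 normalized counts, followed by *Slc7a8* with 1055 and *Slc45a3* with 429. In *Irf8*-OE *Slc7a8* led with 491, followed by *Slc18a2* with 305, *Slc27a3* with 203, *Slc24a5* with 185 and *Slc44a1* with 178. *Slc45a3* had gone down to 65.8. Across the 5 samples the median of the Slc genes was 44.97 normalized counts per kilobase, against 24.3 for all listed genes. As for the counts behind these values, which are not divided by length, 4 Slc genes reached a mean of 1000 in a group, 13 reached between 100 and 1000, and 12 stayed under 100 in both groups. The coefficient of variation between replicates had a median of 11.8% in *Irf8*-OE and 7.94% in the controls, which ranged from 0.0846% for *Slc7a8* to 77.4% for *Slc17a8*.

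**Figure D3:**
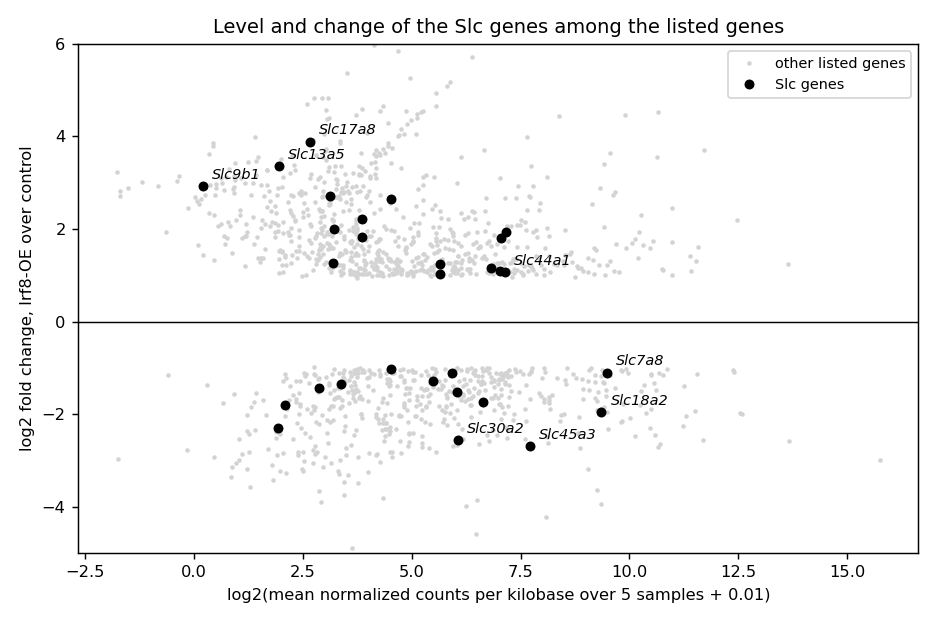
Each point is a listed gene, with its mean normalized counts per kilobase over the 5 samples on a log2 axis (0.01 added) and its log2 fold change, Irf8-OE over control, on the vertical axis. Black points are the 29 Slc genes and grey points the other listed genes, 16 of which lie outside the plotted range. The band around 0 is empty because the list was selected by fold change, and the most abundant Slc genes, Slc7a8 and Slc18a2, are below 0.

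Markers of other cell types moved with these changes. Of 17 mast cell and basophil markers, 13 were listed, 11 lower and 2 higher, and their summed normalized counts went from between 258766 and 263167 in the controls to between 39892 and 44336 in *Irf8*-OE. *Cpa3*, a mast cell protease, fell by 3.00 on the log2 scale, whereas the basophil proteases *Prss34* and *Mcpt8* rose by 3.64 and 2.79. This sum fell in the same samples as the 13 lower Slc genes, *Slc18a2* included, and its part in their fall was not tested. Macrophage markers had 4 of 13 listed, all higher, and their sums went from 3818 to 3956 in the controls up to 19532 to 23703 in *Irf8*-OE. They were *C1qa*, *C1qb*, *C1qc* and *Fcgr1*, whose protein the study measured on dendritic cells. The macrophage markers *Adgre1*, *Cd68*, *Csf1r* and *Mertk* were not listed. Stromal markers had 6 of 12 listed, all higher, with sums of 2526 to 2597 and 10723 to 11756. B lineage markers had 8 of 11 listed, all higher, with sums of 262 to 318 and 4776 to 5557. In the first control sample the B lineage markers *Igha*, *Jchain* and *Mzb1* were at 0. Neutrophil markers had 4 of 10 listed, 3 higher and *Ly6g* lower, with sums of 405 to 488 and 1637 to 1681. Of 8 erythroid markers *Hbb-bt* was listed, and it was lower. The dendritic cell markers *Itgae* and *Tlr11* were higher, with log2 fold changes of 1.62 and 1.75, and *Cd24a* was lower at -1.38. The sum of the 3 went from between 9744 and 10485 to between 3755 and 4237. That sum was nearly all *Cd24a*, whose mean was 10057 in the controls and 3855 in *Irf8*-OE. The part of these sums in the rise of the 16 higher Slc genes was not tested. Other markers of these lists are not analysed here.

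**Figure D4:**
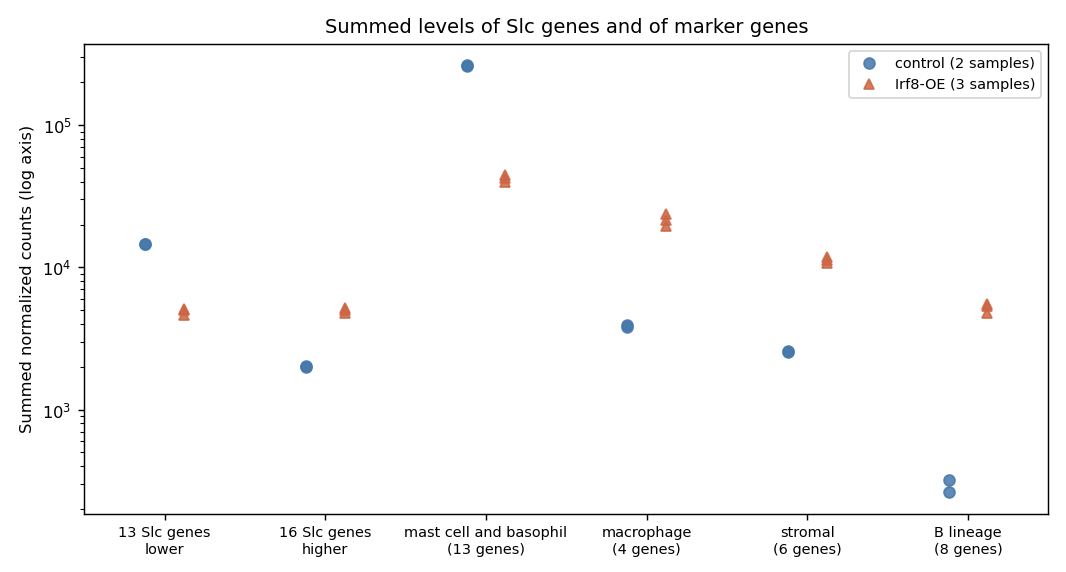
Summed normalized counts, on a log axis, of the 13 lower and the 16 higher Slc genes and of the listed markers of 4 cell types, in the 2 control samples (circles) and the 3 Irf8-OE samples (triangles). The lower Slc genes and the mast cell and basophil markers are lower in all 3 Irf8-OE samples, and the higher Slc genes and the macrophage, stromal and B lineage markers are higher.

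The order of the 3 *Irf8*-OE samples differed from gene to gene. The first *Irf8*-OE sample was the lowest of the 3 in 14 of the 29 genes, the second in 9 and the third in 6. The first was the highest in 8, the second in 7 and the third in 14. The order was not counted over all listed genes, and whether it was uneven was not tested. Leaving out a sample moved the number of Slc genes called higher between 15 and 16 and the number called lower between 10 and 13.

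In the genome, 28 of the 29 Slc genes had the same start and end in GENCODE vM21 (GRCm38) as in the deposited table, the exception being *Slc18a2*. GENCODE vM21 holds 371 protein-coding Slc genes, so 7.82% of them were listed, against 5.15% of all 21951 protein-coding genes. Another annotated gene overlapped 13 of the 29, and a protein-coding gene on the opposite strand overlapped 3, those named above. Noncoding genes on the opposite strand overlapped further Slc genes, *Slc18a2* and *Slc44a1* among them, and none of the overlapping genes was listed. *Slc9b1* and *Slc39a8* are neighbours on chromosome 3, 0.427 Mb apart, and moved in opposite directions. *Slc30a4* and *Slc24a5* lie 2.365 Mb apart on chromosome 2, and both were higher.

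Transporter and channel genes whose symbols do not start with Slc and a digit were also listed, 21 in all, with 11 higher and 10 lower. The organic anion carriers *Slco5a1* and *Slco2b1* were higher, the latter with a log2 fold change of 1.51. All 3 listed ABC transporters were higher, among them *Abca1*, which exports cholesterol, at 1.41 (SE 0.07). All 4 listed genes of the Atp symbols were lower, 3 of them phospholipid flippases (*Atp8b5*, *Atp8b1* and *Atp9a*) and the other a subunit of the vacuolar proton pump (*Atp6v0d2*). *Atp8b5* fell by 2.58 on the log2 scale and *Atp6v0d2* by 1.11. Potassium channel genes were divided, with 3 higher, led by *Kcnj5* at 4.45, and 4 lower, led by *Kcnq1* at -2.35. Aquaporins were divided as well, with *Aqp1* and *Aqp5* higher and *Aqp9* and *Aqp8* lower. *Aqp5* was at 0 in both controls. *Aqp9*, a channel for glycerol and water, had 4350 and 4312 normalized counts in the controls and 1243, 1369 and 1343 in *Irf8*-OE. The calcium-permeable channel gene *Trpc6* was higher at 1.53, and 0 chloride channel genes of the Clcn symbols were listed.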

How the data were processed

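RNA was sequenced as paired reads from poly-A RNA of 3 *Irf8*-OE and 2 control samples. The submitters' processing notes name fastp, HISAT2 2.0.5, featureCounts 1.5.0-p3, DESeq2 1.20.0, edgeR 3.22.5 and mm10 (GRCm38), without their roles. The authors deposited signal values, which are normalized counts, for 1355 genes that they had already selected at an FDR under 0.05 and a log2 fold change over 1 in size. Their columns of log2 fold changes, p-values, adjusted p-values and group means were not used. In each sample 100% of values were whole multiples of a step (within 0.001 reads), which gave back the reads.

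Samples were grouped by the labelled genotype. Each gene was tested on log2(normalized counts + 1) with the trended empirical Bayes fit of limma 3.58.1 in R 4.3.3, which understates the change of low genes, with Benjamini-Hochberg adjustment over 1355 genes. Alternatives were quantile normalization, TMM, DESeq2 1.42.0 and edgeR 4.0.16 on recovered reads, pseudocounts of 0.1 and 10, stricter thresholds, a filter of 10 normalized counts, each sample left out in turn and a replicate block. DESeq2 and edgeR without the third *Irf8*-OE sample were added after seeing the data. Intervals (95%, exact, for ratios of reads) and floors cover counting error only. Scripts were tested on simulated data. Promoters came from RefSeq, and 4 Slc genes had none there (*Slc18a1*, *Slc36a2*, *Slc14a1* and *Slc13a1*). All 29 Slc genes are named, and values in every sample are given for the most abundant and most changed gene of each class, the 6 most changed genes in each direction, and all members of families with 2 or more. Substrate classes, marker lists and the genes themselves were chosen with earlier results of these data known.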

Additional observations from a re-analysis of the deposited data

How the results depend on the processing

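Under all settings in which all 29 Slc genes were tested, 16 lay above 0 and 13 below. With a log2 fold change threshold of 2, 7 Slc genes were called higher, 3 lower and 518 listed genes in all. With TMM 10 were called higher, since *Slc44a1* (0.77), *Slc12a7* (0.72), *Slc30a4* (0.80), *Slc46a3* (0.84), *Slc25a29* (0.96) and *Slc22a3* (0.96) no longer passed the fold threshold, while the median of all listed genes was 0.84. A list selected for change does not meet the assumption of TMM and need not meet that of quantile normalization. Quantile normalization called 14 higher and 12 lower (median of all listed genes 0.79) and split the 1031 called listed genes into 509 higher and 522 lower, against 787 and 556. A pseudocount of 10 also called 14 and 12, losing *Slc2a9* (-0.95), *Slc22a3* (0.996) and *Slc9b1* (0.75). The filter on low values removed *Slc9b1* and called 15 and 13. DESeq2 and edgeR on recovered reads, also without the third *Irf8*-OE sample, a pseudocount of 0.1 and an adjusted p under 0.01 all called 16 and 13. With each sample left out in turn, 15 to 16 were called higher, 10 to 13 lower and 1238 to 1318 listed genes in all. Without the second control sample, the lower count was 10. With the replicate number as a block, 16 and 13 Slc genes and 1319 listed genes were called. The block used the numbers of the sample titles, whose 2 shared numbers had correlations of 0.027 and 0.021 between deviations from group means. The sample descriptions number the controls differently, and their 2 shared numbers had correlations of -0.021 (control 1 with *Irf8*-OE 2) and 0.009 (control 2 with *Irf8*-OE 3). With 2 controls, their deviations from the group mean mirror each other, so the numberings are not separate checks. Neither numbering is shown to pair the samples. Genes outside the list and the depth of the libraries are not analysed here.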
